A study of Homo sapiens with 9 samples.

Results

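The genes described here were 10 interleukins and related cytokines, namely IL1A, IL1B, IL18, IL33, IL6, IL11, LIF, IL12A, IL24 and IL32, out of 60617 Ensembl genes in the count files. They were found by matching each gene identifier to its symbol, and all 10 passed the filter on low counts that left 18532 genes for testing. The libraries were 9 RNA-seq libraries of PC-3, an established human prostate cancer cell line, with 3 in each of 3 groups. The control cells (Ctrl) received only the vehicle, the decitabine cells (Dec) received decitabine at 1 µM, and the combination cells (Dec_Sam) received decitabine at 1 µM together with S-adenosylmethionine (SAM) at 200 µM. All were harvested after 5 days. The vehicle and the doses come from the methods of the paper, and the groups and the time from the sample labels. Since nothing says that the 3 libraries of a group came from separate cultures, the p-values measure the spread between these libraries, which may be technical. PC-3 is 1 cell line, so the libraries hold no variation between patients, and no library of SAM alone was analysed here.

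Interleukins are small secreted proteins by which cells signal inflammation, and epithelial tumour cells make several of them. IL-1α, IL-1β, IL-18 and IL-33 belong to the IL-1 family, whose receptors signal through the adaptor MYD88 and the kinase IRAK1, and IL-1β and IL-18 are made as precursors that caspase-1 cleaves. IL-6, IL-11 and LIF act through receptors that share the chain gp130, encoded by IL6ST, with JAK kinases and STAT proteins downstream. IL12A encodes the p35 chain of IL-12, IL-24 is a member of the IL-10 family, and IL-32 is a cytokine with no close relative in that set. Decitabine is a cytidine analogue that traps DNA methyltransferases and so lowers the methylation of cytosines in CpG dinucleotides, whereas SAM is the methyl donor of those enzymes. The promoter sequences of the members are therefore of interest for how many CpG dinucleotides they hold.

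On GRCh38 (GENCODE release 44) the IL-1 genes IL1A (chr2:112773925-112784493, minus strand) and IL1B (chr2:112829751-112836816, minus strand) are close neighbours. IL18 lies at chr11:112143253-112164096 (minus), IL33 at chr9:6215786-6257983 (plus), IL6 at chr7:22725884-22732002 (plus), IL11 at chr19:55364382-55370463 (minus) and LIF at chr22:30240453-30246759 (minus). IL12A lies at chr3:159988835-159996019, IL24 at chr1:206897443-206904139 and IL32 at chr16:3065297-3082192, all 3 on the plus strand.

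Of the 10 members, 8 were matched to RefSeq promoter windows on GRCh38.p14, each running from 250 bases before a transcription start to 50 bases after it, with 11 windows in all. LIF and IL18 have no entry in the table used. The 250 bases before the start are shown 5′ to 3′ on the strand of the gene, which is the plus strand for all 5, with each CpG in capitals. IL6, IL32 and IL24 are shown because their counts differed most from the control, IL33 because it was the only member called higher in the combination than in decitabine alone, and IL12A because its window held the most CpGs.
IL6, chr7:22726950-22727199: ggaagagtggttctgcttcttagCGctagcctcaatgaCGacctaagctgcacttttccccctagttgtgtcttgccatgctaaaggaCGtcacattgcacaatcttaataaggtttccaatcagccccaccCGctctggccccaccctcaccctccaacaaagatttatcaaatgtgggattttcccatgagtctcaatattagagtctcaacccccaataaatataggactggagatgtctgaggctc
IL32, chr16:3065153-3065402: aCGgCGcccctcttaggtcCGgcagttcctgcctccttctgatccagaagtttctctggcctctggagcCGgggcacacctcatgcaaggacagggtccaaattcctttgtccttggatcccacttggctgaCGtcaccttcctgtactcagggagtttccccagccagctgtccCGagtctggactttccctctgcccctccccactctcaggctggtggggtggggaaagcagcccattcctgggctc
IL24, chr1:206897193-206897442: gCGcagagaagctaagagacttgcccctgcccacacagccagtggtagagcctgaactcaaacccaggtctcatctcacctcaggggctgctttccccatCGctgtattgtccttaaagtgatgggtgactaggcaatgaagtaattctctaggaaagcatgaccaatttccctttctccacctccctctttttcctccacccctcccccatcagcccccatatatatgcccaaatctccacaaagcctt
IL33, chr9:6215557-6215806: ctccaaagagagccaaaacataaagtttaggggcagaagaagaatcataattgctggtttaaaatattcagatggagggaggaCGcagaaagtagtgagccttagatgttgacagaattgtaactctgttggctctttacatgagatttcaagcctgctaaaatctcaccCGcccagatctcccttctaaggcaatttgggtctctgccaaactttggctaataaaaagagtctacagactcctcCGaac
IL12A, chr3:159988585-159988834: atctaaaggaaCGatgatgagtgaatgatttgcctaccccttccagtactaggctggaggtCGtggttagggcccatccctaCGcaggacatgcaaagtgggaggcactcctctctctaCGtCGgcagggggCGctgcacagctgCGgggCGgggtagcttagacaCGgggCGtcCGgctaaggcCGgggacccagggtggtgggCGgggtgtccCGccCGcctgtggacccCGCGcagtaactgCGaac

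The full 300-base windows differed widely in CpG content. IL12A held 24 CpGs and IL11 held 19, against a median of 14 over the 35116 windows in the table. All other matched members lay below that median. The IL1A, IL6 and IL32 windows held 8, 7 and 7 CpGs, the IL24 window 4, the IL1B window 2 and the IL33 windows 1 and 3, and 18.2% of all windows held fewer CpGs than the IL33 window shown. The methylation of these CpGs was not measured in the files used here. The IL6 window held GGATTTTCC, starting 72 bases before the start, and the first IL32 window held GGAGTTTCC at 98 and GGACTTTCC at 68 bases before its start. These letters match the pattern GGANTTTCC, a form of the κB element to which NF-κB binds, searched on both strands, and 1.64% of all windows held it. The IL32 window also held the cyclic-AMP element TGACGTCA, found in 1.85% of the windows. The AP-1 pattern TGANTCA, found in 7.71% of the windows, was present in IL11 and IL1A. A match of letters is a description and not a measured binding site.

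The 9 libraries held between 21934307 and 22489684 estimated counts, so depth was nearly equal. Levels are given below as CPM, that is counts divided by the library size after scaling by the trimmed mean of M-values (TMM), and changes as log2 fold changes from edgeR's quasi-likelihood test with p-values adjusted by Benjamini-Hochberg over all tested genes. Treatment moved a large part of the transcriptome, which sets the background for any count of members. Against the control, decitabine raised 36.3% and lowered 32.5% of the tested genes at an adjusted p under 0.05, and the combination raised 35.9% and lowered 31.3%. Between the combination and decitabine alone, 7.67% were higher and 8.02% lower. The median log2 change of all genes against the control was 0.03 for decitabine and 0.05 for the combination with TMM scaling, but 0.28 and 0.27 with scaling by library size alone. With library size alone, the split of 6729 higher and 6030 lower genes under decitabine became 8849 and 3746. Small changes against the control therefore depend on the scaling. A gene with few counts in the control passed the filter only through treated libraries and could not be called lower than the control. Among the members this holds for IL6, with 26 counts over the control libraries. The counts of genes called higher, in the members and in the lists below, are thus partly set by the filter.

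The summed CPM of 5 epithelial marker genes was 875 to 956 in the control, 869 to 921 under decitabine and 727 to 867 in the combination. Within that sum the members differed, with CDH1 at means of 1.87, 14.4 and 16.9 CPM and KRT19 at 360.3, 241 and 229 CPM. Markers of other cell types were not constant. The summed CPM of 8 leukocyte markers was 38.6 to 48.5 in the control, 224 to 302 under decitabine and 106 to 183 in the combination. Nearly all of it was CD68, at means of 43.5, 256 and 132 CPM. All 4 leukocyte markers tested were called higher under both treatments, against 36.3% and 35.9% of all genes. Under decitabine PTPRC rose 12.0-fold to a mean of 1.06 CPM, the B-cell gene CD79A 6.12-fold to 1.04 and CD14 3.48-fold to 0.648. Of those not tested, the B-cell gene MS4A1 was at 0 in every library and the T-cell gene CD3E at 0 in the control. LYZ held 12 counts in the control and 3 under decitabine. For 5 fibroblast markers the ranges were 3.36 to 5.40, 87.7 to 131 and 71.5 to 102, and for 5 endothelial markers 26.2 to 28.6, 43.2 to 62.5 and 52.2 to 60.7. These sums moved with the cytokines, and their part in the results was not tested. In bulk RNA, a change in the RNA of every cell and a change in the share of cells that express a gene cannot be told apart.

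Under decitabine, IL6, IL24, IL32, IL12A and IL18 rose, LIF fell and the other 4 members did not pass the test. The largest change was that of IL6, 15.9-fold, followed by IL24 at 14.8-fold, IL32 at 11.4-fold and IL12A at 3.02-fold. The 5 members called higher and 1 called lower stand against 36.3% and 32.5% of all genes, and the 6 of 10 called in either direction are a share near that of the transcriptome. The members' median log2 change was 0.77, against 0.03 for all genes. In the combination, 7 members were called higher and 1 lower, with IL33 and IL11 joining those raised, and the median was 1.30 against 0.05. Here too the shares of all genes called, 35.9% and 31.3%, are large. The comparisons share the control libraries and are not independent of each other.

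**Figure D1:**
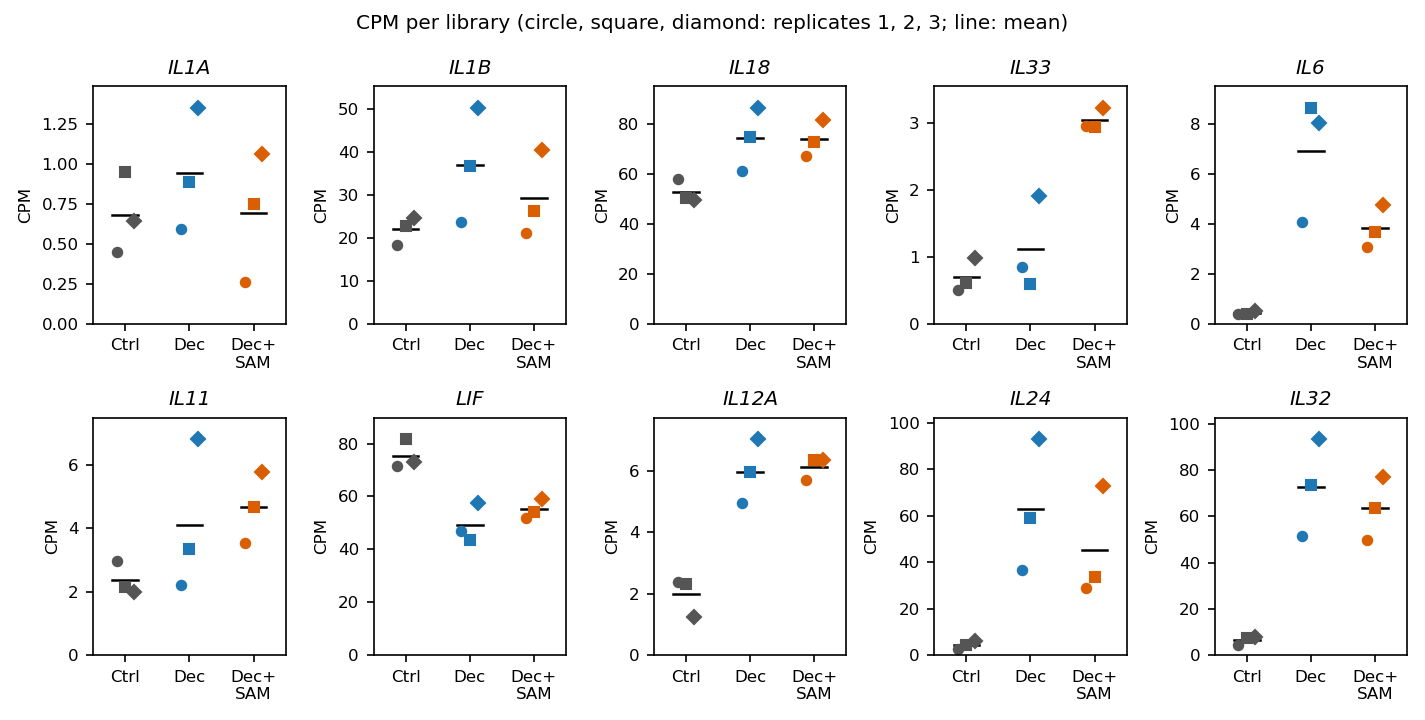
CPM (TMM-scaled, linear axis from 0, own scale per gene) of the 10 members in each library, with 1 panel per gene, points for the 3 libraries of each group and a line at the group mean. IL6, IL24, IL32 and IL12A were higher in all 6 treated libraries than in any control library, LIF was lower in all 6, and IL33 was higher in the 3 combination libraries (2.95 to 3.24 CPM) than in any other.

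Among the IL-1 family, IL33 showed the clearest difference between the treatments. IL-33 is an alarmin that is held in the nucleus and released from damaged barrier cells. Its level was 0.497, 0.60 and 0.987 CPM in control replicates 1, 2 and 3, and 0.846, 0.591 and 1.91 CPM in the decitabine replicates. In the combination it was 2.96, 2.95 and 3.24 CPM. The control and decitabine libraries overlapped, whereas the 3 combination libraries lay above the other 6. The counts behind these levels were low, from 10 to 20 in the control, 14 to 45 under decitabine and 67 to 76 in the combination. The combination raised IL33 over the control by 2.12 ± 0.37 (log2, SE; edgeR adjusted p = 0.00016), a 4.36-fold change. Decitabine alone gave 0.68 ± 0.41 (edgeR adjusted p = 0.15), with a 95% interval from -0.20 to 1.56, which became 0.97 and passed the test without decitabine replicate 2 (edgeR adjusted p = 0.039). The difference between the treatments is given with the other members below.

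IL18 encodes a cytokine of the same family that is made constitutively by many epithelial cells, and it was among the most abundant members. It stood at 57.8, 50.3 and 49.4 CPM in the control, 61.3, 74.7 and 86.5 CPM under decitabine and 67.2, 72.7 and 81.4 CPM in the combination. All 6 treated libraries lay above the control libraries. The change was small, 0.50 ± 0.12 under decitabine and 0.49 ± 0.12 in the combination (log2, SE; edgeR adjusted p = 0.0019 and 0.0022), and it was called in all 18 alternative settings for the combination.

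IL1B, which encodes the precursor of IL-1β, did not pass the test in either comparison with the control, although its call depended on the method in both. Its level was 18.4, 22.8 and 24.7 CPM in the control, 23.7, 36.7 and 50.4 CPM under decitabine, and 21.1, 26.2 and 40.4 CPM in the combination, so each treated group overlapped the control. The log2 changes were 0.75 ± 0.34 (edgeR adjusted p = 0.088) and 0.41 ± 0.34 (edgeR adjusted p = 0.32). Without decitabine replicate 1, the lowest of that group, IL1B was 0.98 higher under decitabine and passed the test (edgeR adjusted p = 0.023). With the replicate number fitted as a block, it passed under decitabine (0.70, edgeR adjusted p = 1e-04). That was also the only alternative setting in which it passed in the combination (0.37, edgeR adjusted p = 0.011). Under decitabine it also passed with DESeq2 (0.77, adjusted p = 0.044), with voom and limma (0.69, adjusted p = 0.039), with edgeR and library size alone (1.0, adjusted p = 0.04) and with edgeR on only the 6 libraries compared (0.77, adjusted p = 0.049). IL1A, the gene of IL-1α, was near the lower limit of detection with 6 to 32 counts in a library. Its group means were 0.680, 0.944 and 0.691 CPM in the control, decitabine and combination groups, with SDs of 0.254, 0.385 and 0.405 (n = 3 each), and all groups overlapped. The 95% interval of its log2 change was -0.51 to 1.46 under decitabine and -1.0 to 1.06 in the combination. Changes of up to about 2-fold in either direction thus lie within the interval for the combination.

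Among the cytokines that signal through gp130, IL6 rose and LIF fell. IL-6 is the main inducer of the acute-phase response. IL6 stood at 0.397, 0.400 and 0.494 CPM in the control, where each library held 8 to 10 counts. It reached 4.06, 8.65 and 8.05 CPM under decitabine and 3.05, 3.65 and 4.73 CPM in the combination. The treated libraries did not overlap the control. The log2 change was 3.99 ± 0.35 under decitabine and 3.13 ± 0.36 in the combination (SE; edgeR adjusted p = 2.8e-07 and 4.4e-06), and the call held in all 18 alternative settings for the combination. The exons of IL6 share 9.91% of their bases with IL6-AS1 on the other strand. IL6-AS1 had 0 to 1 counts per control library, 26 to 40 under decitabine and 10 to 31 in the combination, and whether the counting used strand is not given in the sources used here.

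LIF, the leukaemia inhibitory factor, was the only member that fell. It was at 71.4, 81.7 and 73.1 CPM in the control, 46.8, 43.7 and 57.3 CPM under decitabine and 51.8, 54.2 and 59.2 CPM in the combination. All treated libraries lay below the control. The log2 changes were -0.61 ± 0.10 and -0.45 ± 0.10 (SE; edgeR adjusted p = 7.1e-05 and 0.00093). With scaling by library size alone the change in the combination shrank to -0.23 and was not called (edgeR adjusted p = 0.065). IL11, which encodes a cytokine of stroma and bone, was at 2.98, 2.15 and 1.97 CPM in the control and 2.20, 3.33 and 6.82 CPM under decitabine, with overlap. In the combination it was at 3.53, 4.66 and 5.79 CPM, above every control library. Its log2 change was 0.80 ± 0.39 under decitabine (edgeR adjusted p = 0.092) and 0.98 ± 0.39 in the combination (edgeR adjusted p = 0.045). The latter call was at the threshold and was lost when any one of the control replicates, decitabine replicate 2, combination replicate 2 or combination replicate 3 was left out, with log2 changes of 0.79 to 1.17. For decitabine, IL11 was 1.09 higher and called without decitabine replicate 1 (edgeR adjusted p = 0.0082), and it was also called with DESeq2 (0.82, adjusted p = 0.037), with edgeR and library size alone (1.05, adjusted p = 0.04) and with edgeR and no filter (0.75, adjusted p = 0.0018).

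IL12A rose about alike under both treatments. It was at 2.38, 2.30 and 1.23 CPM in the control, 4.95, 5.95 and 7.03 CPM under decitabine and 5.70, 6.34 and 6.35 CPM in the combination, and the treated libraries did not overlap the control. The log2 changes were 1.60 ± 0.22 and 1.63 ± 0.22 (SE; edgeR adjusted p = 1.6e-05 and 1.4e-05). The p35 chain is secreted as a cytokine only with a partner chain, p40 from IL12B or the chain from EBI3, and these genes were looked up after the values of IL12A were seen. IL12B held 1 count in all the control libraries together, 16 under decitabine and 17 in the combination, too few for the test. EBI3 held 1 to 3 counts in a control library, 33 to 72 under decitabine and 22 to 50 in the combination.

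IL24 and IL32 moved from low to among the most abundant members. IL-24 is a secreted cytokine that acts on epithelial cells through IL-20 and IL-22 type receptors. IL24 was at 2.43, 4.45 and 5.87 CPM in the control, 36.5, 59.2 and 93.0 CPM under decitabine and 29.0, 33.4 and 72.7 CPM in the combination. Within each treated group the libraries differed more than 2-fold, but none overlapped the control. The log2 changes were 3.88 ± 0.62 and 3.40 ± 0.62 (SE; edgeR adjusted p = 0.0013 and 0.0025). Of the exon bases of IL24, 41.6% are shared with FCMR on the other strand, which held 60 to 120 counts in a control library, 533 to 1256 under decitabine and 977 to 1172 in the combination. Without strand, reads from that stretch cannot be told apart, and the values of IL24 are to that extent uncertain.

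IL-32 is an inducer of other inflammatory cytokines in human cells. IL32 was at 4.17, 7.35 and 7.70 CPM in the control, 51.6, 73.8 and 93.5 CPM under decitabine and 49.8, 63.9 and 77 CPM in the combination. The lowest treated library was far above the highest control library. The log2 changes were 3.51 ± 0.33 and 3.31 ± 0.33 (SE; edgeR adjusted p = 4.6e-05 and 6.7e-05), that is 11.4-fold and 9.91-fold.

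**Figure D2:**
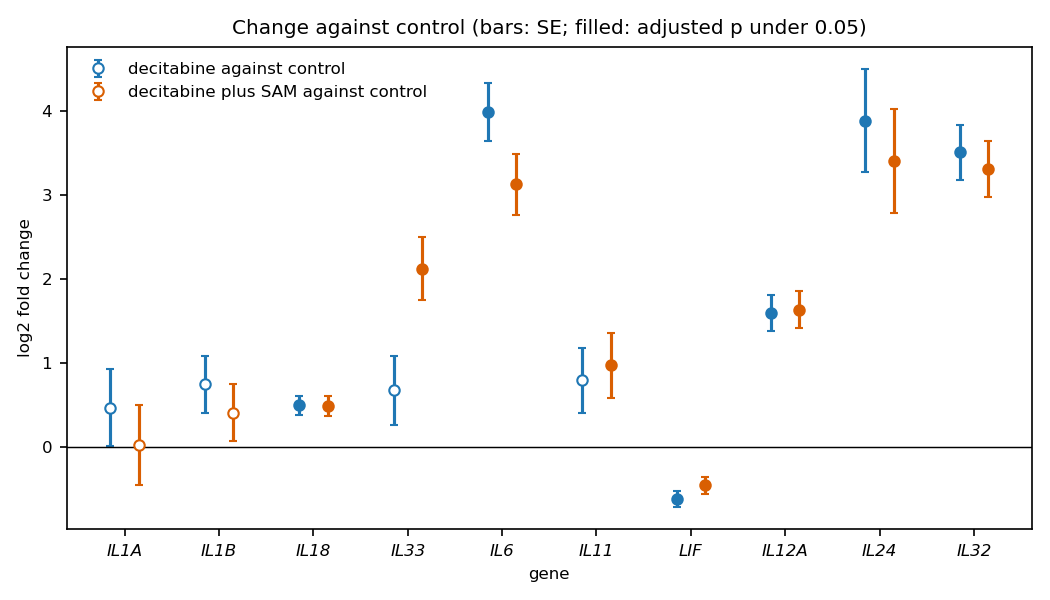
Log2 fold change of each member against the control for decitabine (blue) and for decitabine plus SAM (orange), with bars for the SE and filled points for an adjusted p under 0.05 by edgeR. IL6, IL24 and IL32 lie between 3.13 and 3.99 for both treatments, LIF lies below 0, and IL33 lies at 0.68 for decitabine and 2.12 for the combination.

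To compare the members with each other, mean CPM was divided by the summed length of each gene's exons in kilobases. This length joins the exons of all annotated transcripts of a gene. Which transcripts were present was not determined, so the order of the members depends on this choice of length. In the control IL18 and LIF led at 20.2 and 19.5 CPM per kb, a difference within their spread, and IL1B followed at 7.30. IL24 and IL32 at 2.15 and 2.0 did not differ beyond their spread, nor did IL12A and IL11 at 1.01 and 0.884. IL1A, IL33 and IL6 were lowest at 0.337, 0.214 and 0.0996. Under decitabine the order began with IL24 at 31.8, IL18 at 28.5 and IL32 at 22.7 CPM per kb, which overlapped, while LIF at 12.7 and IL1B at 12.3 came next. IL6 moved from last place in the control to 1.60, beside IL11 at 1.54, and IL33 was last at 0.342. In the combination IL18, IL24 and IL32 again led at 28.3, 22.8 and 19.8, and IL33 at 0.937 stood beside IL6 at 0.882, with IL1A last at 0.343.

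The comparison of the combination with decitabine alone asks whether adding SAM changed the response. Of the 10 members, IL33 was called higher, IL6 was called lower and 8 did not pass the test, against 7.67% and 8.02% of all genes. The median log2 difference of the members was -0.10, against 0.00 for all genes. IL33 was 2.73-fold higher in the combination, a log2 difference of 1.45 ± 0.34 (SE; edgeR adjusted p = 0.013; 95% interval 0.73 to 2.18), with no overlap between the groups. The call was lost without decitabine replicate 2 (1.15, edgeR adjusted p = 0.062) and without combination replicate 2 (1.47, edgeR adjusted p = 0.052), and the difference was 2.03 without replicate 3 of both treated groups.

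IL6 was lower in the combination by -0.86 ± 0.25 (log2, SE; edgeR adjusted p = 0.036; 95% interval -1.40 to -0.32), a 1.81-fold difference. The groups overlapped, since decitabine replicate 1 at 4.06 CPM lay below combination replicate 3 at 4.73 CPM. The call was not stable. It was lost when control replicate 1 or 2, decitabine replicate 2 or 3, or combination replicate 1 or 2 was left out, with log2 differences of -0.86 to -0.67 in those fits. It was also lost with voom and limma (-0.80, adjusted p = 0.065) and when only the 6 libraries compared were fitted (-0.86, edgeR adjusted p = 0.079).

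For the other 8 members the 95% interval of the difference included 0. It was narrowest for LIF, -0.05 to 0.37, and IL18, -0.26 to 0.24, and next for IL12A, -0.38 to 0.45. Changes of more than about 1.4-fold lie outside these 3 intervals. The intervals of IL32, -0.84 to 0.44, IL11, -0.62 to 0.98, IL1B, -1.12 to 0.45, IL1A, -1.41 to 0.51, and IL24, -1.67 to 0.70, leave room for differences of about 1.8-fold or more. LIF was called higher in the combination, by 0.28, without decitabine replicate 3 (edgeR adjusted p = 0.045). With the replicate number fitted as a block, IL24 was called lower in the combination (-0.50 ± 0.10, log2, SE; edgeR adjusted p = 0.0066). Replicate 3 held the highest CPM of its group for 10 of 10 members in the combination and 9 of 10 under decitabine, whereas it was highest for 38.1% and 38.9% of all tested genes. In the control it was highest for 5 of 10 members.

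**Figure D3:**
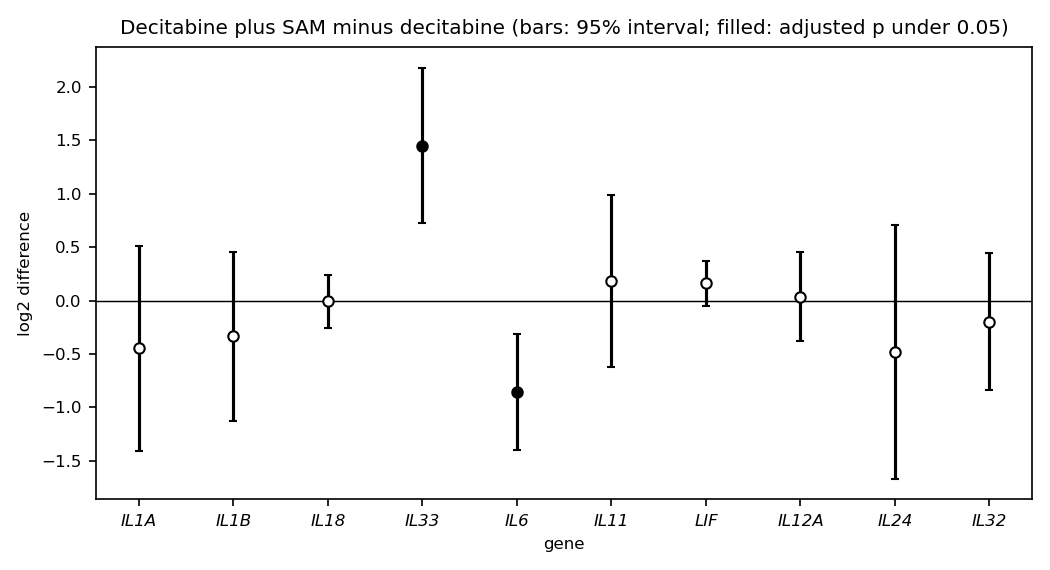
Log2 difference of each member between decitabine plus SAM and decitabine alone, with bars for the 95% interval and filled points for an adjusted p under 0.05 by edgeR. Above the line is higher with SAM. IL33 at 1.45 and IL6 at -0.86 are the filled points, and the intervals of the other 8 include 0.

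Of 16 listed receptor genes 14 were tested, and 9 rose and none fell under decitabine, against 36.3% and 32.5% of all genes. In the combination 8 rose and 3 fell, against 35.9% and 31.3% of all genes. Some receptor genes, with 1 count over the control libraries, passed the filter only through treated libraries and could not be called lower than the control. The median log2 changes were 0.88 and 0.68, beside 0.03 and 0.05 for all genes. Between the treatments 3 receptor genes were lower with SAM and none was higher, against 8.02% and 7.67% of all genes. IL1RL1, which encodes the IL-33 receptor ST2, stood at 6.40 to 6.66 CPM in the control, 21.0 to 25.1 under decitabine and 12.6 to 18.7 in the combination. The 3 groups did not overlap, and the difference between the treatments was -0.62 ± 0.13 (log2, SE; edgeR adjusted p = 0.0073), opposite in sign to that of IL33. It was -0.50 and not called without combination replicate 2 (edgeR adjusted p = 0.051). OSMR, the oncostatin M receptor, which pairs with gp130, was at 37.9 to 42.9, 43.2 to 48.0 and 26.3 to 34.6 CPM and differed by -0.66 ± 0.10 (edgeR adjusted p = 0.0016), a call that held in all 18 alternative settings. IL22RA1, a chain of a receptor for IL-24, was at 0.894 to 1.73, 4.05 to 5.67 and 1.74 to 3.83 CPM. Its difference of -0.89 ± 0.27 (edgeR adjusted p = 0.039) was lost when control replicate 2 or any of the 6 treated libraries but combination replicate 3 was left out, with values of -1.01 to -0.66.

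Of 14 listed genes that process the IL-1 family cytokines, 10 were tested. Under decitabine 8 rose and 1 fell, against 36.3% and 32.5% of all genes, and in the combination 6 rose and 2 fell, against 35.9% and 31.3%. CASP1, the gene of caspase-1, held 1 count in each control library, 101 to 188 under decitabine and 9 to 89 in the combination. The ratio to the control was 112 under decitabine (counting interval 38.2 to 547) and 33.8 in the combination (11.3 to 166). AIM2, which senses DNA in the cytosol and assembles an inflammasome, held 2 counts in the control libraries together, 62 to 138 in a decitabine library and 3 to 39 in a combination library, with ratios of 121 (33.1 to 1003) and 21.8 (5.73 to 185). PYCARD, the adaptor of the inflammasome, had 0 counts in the control, 13 to 18 in a decitabine library and 12 to 16 in a combination library, so it was at least 12.8-fold and 11.6-fold higher, taking 3 counts over the control group as the floor. PYCARD was picked out after its values were seen. With 3, 2 and 0 counts over the control libraries, CASP1, AIM2 and PYCARD passed the filter only through treated libraries. They could not be called lower than the control, so the count of processing genes that rose is partly set by the filter. Without any one of the control replicates, CASP1 and AIM2 were not called in the combination against the control. The log2 changes were 4.91 to 4.92 for CASP1, and for AIM2 3.71 and 3.70 without control replicates 2 and 3, while without replicate 1 no control count of AIM2 was left. AIM2 was not called without combination replicate 3 either (2.67).

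Between the treatments, 5 of the 10 processing genes were lower with SAM and none was higher, against 8.02% and 7.67% of all genes. CASP8, the initiator of death-receptor apoptosis that can also cleave IL-1β, was at 63.1 to 67.7 CPM in the control, 101 to 121 under decitabine and 57.2 to 73.9 in the combination, a difference of -0.78 ± 0.10 (log2, SE; edgeR adjusted p = 0.00041). GSDMD, the gene of the pore through which IL-1β leaves the cell, was at 82.9 to 95.8, 70.2 to 76.4 and 40.4 to 52.0 CPM, a difference of -0.67 ± 0.09 (edgeR adjusted p = 0.00075). Both calls held in all 18 alternative settings. CASP4, a caspase that cleaves gasdermin D, was at 23.5 to 24.6, 57.5 to 69.4 and 22.2 to 45.2 CPM and differed by -1.0 ± 0.24 (edgeR adjusted p = 0.029). NLRP3, an inflammasome sensor, was at 7.50 to 9.97, 5.04 to 9.39 and 3.92 to 4.52 CPM and differed by -0.71 ± 0.20 (edgeR adjusted p = 0.031). AIM2 differed by -2.47 ± 0.68 (edgeR adjusted p = 0.044). CASP1 differed by -1.74 ± 0.67 and was not called (edgeR adjusted p = 0.13), but without combination replicate 3 it was -3.23 and called. It was also called with DESeq2 (-1.76, adjusted p = 0.016), with voom and limma (-2.29, adjusted p = 0.014) and with the replicate block (-1.99, edgeR adjusted p = 0.0042). The calls of CASP4, NLRP3 and AIM2 were each lost without decitabine replicate 1 or 2 or combination replicate 1 or 2, with differences of -1.05 to -0.81 for CASP4, -0.76 to -0.44 for NLRP3 and -2.69 to -1.98 for AIM2. The calls of CASP4 and AIM2 were also lost without decitabine replicate 3 (-0.91 and -2.09), and that of AIM2 without any one control replicate (-2.46). The method mattered too. On only the 6 libraries compared, CASP4, NLRP3 and AIM2 were not called (edgeR adjusted p = 0.074, 0.053 and 0.086). Without a filter, CASP4 and AIM2 were not called (edgeR adjusted p = 0.071 and 0.069). NLRP3 was not called with voom and limma (-0.67, adjusted p = 0.058), nor AIM2 with DESeq2 (-2.49, adjusted p = 0.069).

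**Figure D4:**
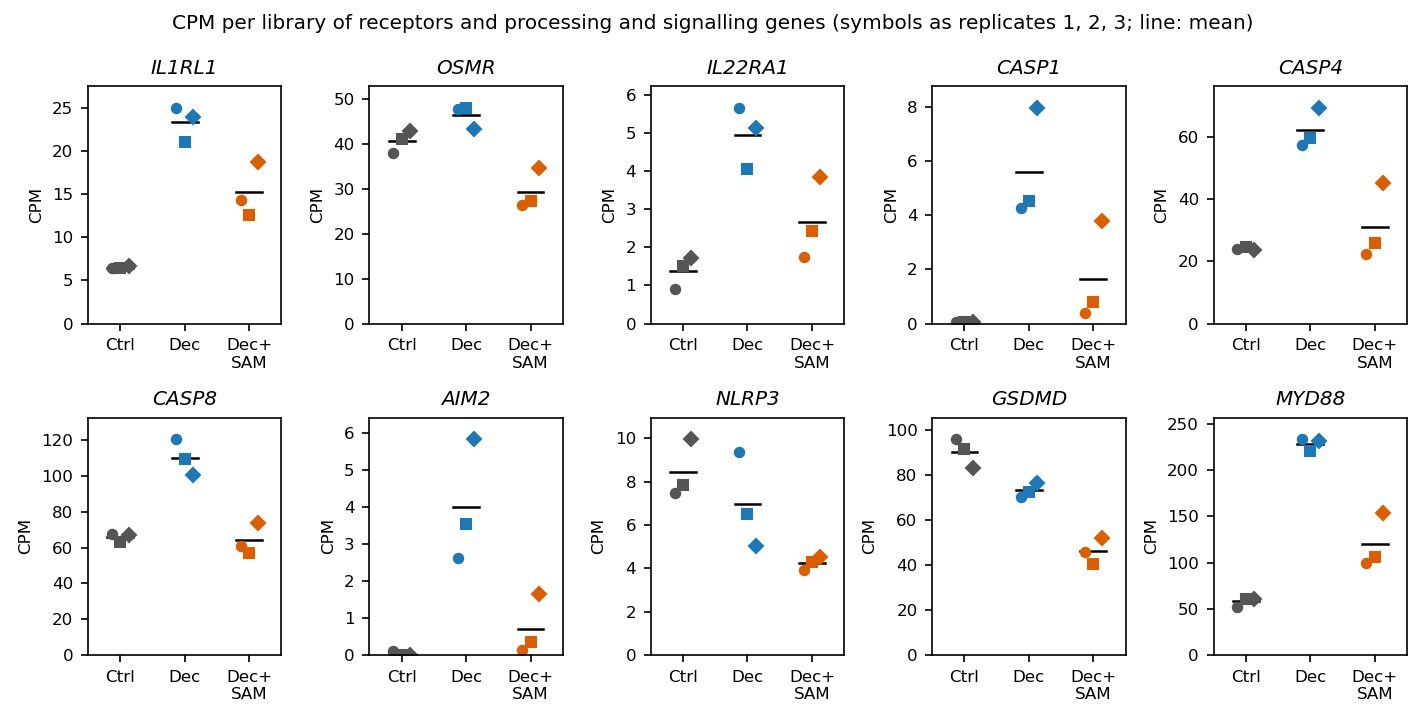
CPM (TMM-scaled, linear axis from 0, own scale per gene) in each library of 3 receptor genes, 6 genes that process IL-1 family cytokines and MYD88, with points for the 3 libraries of each group and a line at the mean. In all 10 panels every combination library is lower than any decitabine library, and combination replicate 3 is the highest of its group. Most of these genes were picked because they were called between the treatments.

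The signalling genes moved in both directions. Of 12 listed, 11 were tested, with 5 rising and 2 falling under decitabine, against 36.3% and 32.5% of all genes, and 4 rising and 2 falling in the combination, against 35.9% and 31.3%. MYD88 was at 52.4 to 60.7 CPM in the control, 221 to 233 under decitabine and 99.7 to 154 in the combination. It rose 3.94-fold and 2.07-fold over the control, and the difference between the treatments was -0.93 ± 0.14 (log2, SE; edgeR adjusted p = 0.0026), which held in all 18 alternative settings. IRAK1, the kinase downstream of MYD88, was at 792 to 837, 383 to 403 and 326 to 379 CPM and fell by 1.04 and 1.22 on the log2 scale (edgeR adjusted p = 2.6e-08 and 5.6e-09). TYK2, a JAK kinase, fell by 0.38 and 0.47 (edgeR adjusted p = 9.5e-05 and 1.5e-05), but under decitabine it was -0.14 and not called with library size alone (edgeR adjusted p = 0.075). JAK1 was 0.28 lower and STAT4, which acts downstream of IL-12, 0.84 lower with SAM than without (edgeR adjusted p = 0.033 and 0.039). Both of these calls were lost without decitabine replicate 1 or 2 or combination replicate 1 or 2, at -0.27 to -0.22 for JAK1 and -0.90 to -0.59 for STAT4; JAK1 also lost its call without control replicate 2 (-0.27) and STAT4 without decitabine replicate 3 (-0.80). The rise of JAK1 under decitabine (0.20, edgeR adjusted p = 0.038) was lost when any one of the control libraries, decitabine replicate 1 or 2, or combination replicate 2 was left out, with values of 0.14 to 0.22. STAT3, the transcription factor that gp130 activates, had 0 counts in all 9 libraries.

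Of 9 listed inhibitors of these pathways 8 were tested, and 6 rose under decitabine and 5 in the combination, against 36.3% and 35.9% of all genes. None was called lower, against 32.5% and 31.3% of all genes, and the others did not pass the test. SOCS1, a feedback inhibitor of JAK kinases, was at 0.642 to 0.951 CPM in the control, 4.40 to 4.70 under decitabine and 1.72 to 3.45 in the combination. It differed by -0.90 ± 0.23 (log2, SE) between the treatments (edgeR adjusted p = 0.018), and this call was lost without decitabine replicate 2, combination replicate 1 or combination replicate 2 (-0.90 to -0.70). It was the only one of the 8 inhibitors called between the treatments.

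Of 40 other cytokine genes fixed in a list, only 14 passed the filter on low counts. Under decitabine 11 of these rose and 2 fell, against 36.3% and 32.5% of all genes, and in the combination 10 rose and none fell, against 35.9% and 31.3%. TSLP, an epithelial cytokine that acts with IL-33 on innate lymphoid cells, had 0 to 4 counts in a control library, 115 to 214 under decitabine and 90 to 196 in the combination, a log2 change of 6.06 ± 0.59 and 5.76 ± 0.61 (SE; edgeR adjusted p = 5.1e-06 and 9.4e-06). Genes such as TSLP and EBI3, with 6 and 5 counts over the control libraries, passed the filter only through treated libraries. They could not be called lower than the control, so the count of other cytokines that rose is partly set by the filter. Between the treatments IL23A and IL7 were lower with SAM and none was higher. IL23A, the p19 chain of IL-23, differed by -1.01 ± 0.27 (log2, SE; edgeR adjusted p = 0.025), from 3.72 to 7.07 CPM under decitabine to 2.11 to 3.92 in the combination. IL7, a growth factor of lymphocytes, differed by -0.79 ± 0.21 (edgeR adjusted p = 0.020). Both calls were lost without decitabine replicate 2 or combination replicate 1 or 2, at -0.98 to -0.85 for IL23A and -0.75 to -0.66 for IL7. That of IL23A was also lost without decitabine replicate 3 (-0.78), and that of IL7 without decitabine replicate 1 (-0.77). The 5 lists held 14 receptor, 10 processing, 11 signalling, 8 inhibitor and 14 other cytokine genes that were tested. Over them, 14 genes were lower and none was higher in the combination than under decitabine alone, against 8.02% and 7.67% of all genes. The lists were written with earlier results of these data known, so this tally is only a description. Of the genes in it, only OSMR, CASP8, GSDMD and MYD88 kept their call in all 18 alternative settings.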

How the data were processed

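PC-3 libraries of 3 groups were sequenced as RNA on a BGISEQ-500. According to the methods, the authors trimmed reads with Trim Galore (version 0.6.4), related them to GRCh38 and counted them with kallisto, and the deposited files hold estimated counts per Ensembl gene, not normalized. The deposited log2 CPM values were not used. Whether strand was used and which annotation release was used are not given in the sources used here. Estimated counts were rounded to whole numbers, 60357 of 60617 identifiers were matched to symbols (GENCODE release 44), and 18532 genes passed edgeR's filterByExpr.

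All 9 libraries were fitted together with edgeR (version 4.0.16; TMM, robust quasi-likelihood, no block), although the methods name voom and limma, which served as an alternative beside DESeq2, other scalings and filters, the replicate block and each library left out. On simulated data the script was tested before use. Libraries held 21934307 to 22489684 counts, and intervals from counts cover counting error only. No 2 libraries agreed within sampling noise.

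The 10 members and the lists were chosen with earlier results of these data known. Text names all members, list genes called between the treatments, and the 2 largest rises and 2 largest falls against the control among called list genes whose mean count reached 50 in some group. Libraries of SAM alone and the other assays were not analysed here.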

Additional observations from a re-analysis of the deposited data

How the results depend on the processing

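With 3 libraries a group, the members called against the control kept their direction in every setting tried and their call in all but 2 cases. IL11's combination call was lost in 6 fits that left out a library, and LIF's with library size alone, which left 0 members lower in the combination. Low depth limits IL1A, IL33 and IL6 in the control. The methods name no pairing of libraries by replicate number, and the main test used no block. Deviations of same-numbered libraries correlated at -0.04 to 0.01 between control and decitabine and 0.01 to 0.12 between control and combination. Between the treatments they correlated at 0.05 to 0.32, and 3 of 3 libraries correlated best with their own number. Between control and combination 2 of 3 did so, and between control and decitabine 0 of 3. Whether the treated libraries were paired by number was not tested. With the replicate block, 3656 rather than 2908 genes were called between the treatments, with 2 members lower (IL6 and IL24), 2 inhibitors and 4 other cytokines, and IL1B was called against the control in both treatments; IL1A in the combination against the control was -0.023.

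Between the treatments, leaving out 1 library at a time gave 0 to 2 members called higher, 0 to 1 lower, 1 to 5 receptors, 0 to 3 inhibitors, 2 to 6 processing genes, 1 to 4 signalling genes, 0 to 4 other cytokines and 861 to 4063 genes in all. Without replicate 3 of both treated groups, an alternative added after the data were seen, 5 receptors, 3 inhibitors and 4444 genes were called. No member was lower with voom and limma or with only the 6 libraries compared (0 each), and the latter left 2 processing genes and 1 other cytokine between the treatments and 5 processing genes in the combination against the control. Without a filter, 3 processing genes were called between the treatments, and 18 other cytokines in the combination against the control.

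Signs changed only where no call was made. In the combination against the control, IL1A was -0.12 with voom and limma, -0.0035 without a filter, -0.43 to 0.40 with single libraries left out and -0.43 without replicate 3 of both treated groups; CASP8 was 0.18 and JAK1 0.15 with library size alone, and CASP8 -0.17 to 0.025 with single libraries left out. Between the treatments, with single libraries left out, IL12A ranged from -0.082 to 0.17, IL11 from -0.12 to 0.75, IL18 from -0.13 to 0.12 and IL32 from -0.40 to 0.020; IL18 was 0.0023 with voom and limma, 0.0017 without a filter and 0.041 without replicate 3 of both treated groups. The cause of these changes was not tested.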

Other observations

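STAT3 was one of a run of adjacent genes on chromosome 17 (GRCh38) that had few or no counts in any library, a pattern looked for after the value of STAT3 was seen. Among protein-coding genes within 300 kb, KAT2A, HSPB9, KCNH4, HCRT, STAT5A and STAT3 had 0 counts in all 9 libraries, STAT5B had 1 count in all and CAVIN1 4, and RAB5C, GHDC and DHX58 had at most 2, 4 and 3 counts in a library. The run lies between 42101404, the start of DHX58, and 42423256, the end of CAVIN1. On its left, NKIRAS2 had 864 to 1609 counts in a library and DNAJC7 1189 to 1880, and on its right NAGLU had 265 to 349 and COASY 2428 to 3032, with ATP6V0A1 (3 to 21) and ZNF385C (2 to 27) in between. The same held in control and treated libraries. The cause of the run was not tested.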
